A study of Homo sapiens with 20 samples.

Results

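Metallothionein genes were followed in cells of Mel202, an established line grown from a human uveal melanoma, under 2 retinoids and their solvent. The members were all probes annotated to 7 listed genes (MT1A, MT1E, MT1F, MT1G, MT1H, MT1X and MT2A), and a gene was kept when its detection p was under 0.01 on 3 or more of 20 arrays. Of the 7 genes, 3 had a probe that the annotation used here names to that gene alone, and all 3 passed the filter: MT1X (probe ILMN_1775170), MT2A (ILMN_1686664) and MT1E (ILMN_2173611). They stand among 10673 genes kept in all. MT1A, MT1F, MT1G and MT1H were not analysed here.

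The series used Illumina BeadChips, on which total RNA is read as probe intensity. There were 6 groups: all-trans retinoic acid (ATRA, 100 nM) for 24 h with 3 samples on 4 arrays, 9-cis retinoic acid (9-cis RA, 100 nM) for 24 h with 2 samples on 3 arrays, the ethanol solvent (EtOH) for 24 h with 2 samples on 3 arrays, and ATRA, 9-cis RA and EtOH for 48 h with 3, 2 and 2 samples on 4, 3 and 3 arrays. Arrays whose titles carry one sample number were averaged, so that "replicate 2-3" is 1 sample read on a pair of arrays, and the 20 arrays gave 14 samples. All groups share the same genotype, 2 changes in GNAQ (Q209L and R210K) with wild-type BRAF, and the same serum-containing medium; 1 line cannot stand for uveal melanoma at large. The labels do not say that samples came from separate cultures, so the p-values rest on the spread among the samples at hand, part or all of which may be technical, and the number of samples limits the precision.

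Metallothioneins are small, cysteine-rich proteins that bind zinc and copper, and cadmium where cells are exposed to it. Their genes lie in a cluster on the long arm of human chromosome 16, and are switched on when free zinc binds the transcription factor MTF1, which then sits on short metal response elements in their promoters; glucocorticoids and oxidants also raise several of them. MT2A and MT1X are widely expressed members, and MT1E is known to vary among melanomas. Of the ligands used, ATRA acts through retinoic acid receptors, while 9-cis RA can also bind retinoid X receptors.

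Of the 3 kept members, 2 had a promoter in the RefSeq table (GRCh38.p14), and these are shown because MT1X and MT2A moved together below and the metal response element is the known hallmark of this family. Each runs from 250 bases before the gene start to 50 after it, on the plus strand of chromosome 16, at chr16:56608334-56608633 for MT2A and chr16:56682220-56682519 for MT1X. Capitals mark every match to the metal response element core, TGCACNC or TGCGCNC, read on either strand.
MT2A: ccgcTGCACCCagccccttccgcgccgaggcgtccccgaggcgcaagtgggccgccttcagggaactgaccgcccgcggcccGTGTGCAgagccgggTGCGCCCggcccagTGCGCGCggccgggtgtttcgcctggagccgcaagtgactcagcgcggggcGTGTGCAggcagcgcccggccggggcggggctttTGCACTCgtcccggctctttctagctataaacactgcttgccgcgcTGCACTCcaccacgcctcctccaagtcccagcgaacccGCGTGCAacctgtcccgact
MT1X: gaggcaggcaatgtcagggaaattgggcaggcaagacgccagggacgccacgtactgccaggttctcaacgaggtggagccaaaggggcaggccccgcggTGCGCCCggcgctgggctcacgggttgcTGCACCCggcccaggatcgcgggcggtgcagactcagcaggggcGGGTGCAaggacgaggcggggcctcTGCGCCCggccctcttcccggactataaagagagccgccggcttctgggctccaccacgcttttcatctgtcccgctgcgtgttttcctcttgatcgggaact
MT2A held 8 matches and MT1X 4, with none overlapping another. Of 35116 RefSeq promoters of this length, 29.6% held at least 1 match, 211 (0.601%) held 4 or more and 7 (0.0199%) held 8 or more. The retinoic acid receptor half-site AGGTCA was not found in either window on either strand, while 13.8% of all promoters held it. TATAAA occurred once in each (11.5% of all promoters), as did the antioxidant response element core TGACNNNGC (13.3%). A match describes letters only and shows no binding.

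The retinoid treatment was visible in the cells by CYP26A1, a retinoic acid hydroxylase and known receptor target: its probe was detected on 14 of 14 retinoid arrays and on 0 of 6 EtOH arrays. Detected probes made up 26.5% to 36.2% of those on an array. The arrays fell into 2 sets by that number, 12 arrays with 15870 to 17128 detected probes and 8 with 12561 to 14301, and every group had arrays in both, so the members' results are also given within each set. Of 10 melanocytic markers, 8 had a probe named to that gene alone, and all 8 passed the detection filter. The 2 EtOH samples at 48 h stood apart from each other, at −41.1 for replicate 1 and −19.0 for replicate 2-3 on the first principal component (42.7% of variance), and 4 retinoid samples (replicate 4 of ATRA at 24 h and at 48 h, and the 9-cis RA pair at 24 h) stood apart on the second. Results are therefore given with and without these samples.

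MT1X, a zinc- and copper-binding metallothionein, was called lower with both retinoids at 48 h and was not called at 24 h. All values below are log2 normalized intensities after background correction, and differences are retinoid minus EtOH, tested with limma across 10673 genes and called at an adjusted p under 0.05. At 48 h, MT1X stood at 8.72, 8.89 and 8.66 in ATRA samples, 8.95 and 8.65 in 9-cis RA samples, and 10.03 and 9.26 in EtOH samples. All retinoid samples lay below both EtOH samples, although the EtOH pair differed by 0.77 between themselves. MT1X fell by 0.88 with ATRA (SE 0.19, 1.85-fold lower, limma adjusted p = 0.00764) and fell by 0.85 with 9-cis RA (SE 0.21, 1.80-fold lower, limma adjusted p = 0.0205). In bulk RNA, fewer cells with the transcript and less of it per cell cannot be told apart.

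At 24 h the same order held with smaller gaps. MT1X stood at 9.33, 9.48 and 9.30 in ATRA samples, 9.46 and 9.46 in 9-cis RA samples, and 9.89 and 9.87 in EtOH samples. No retinoid sample reached an EtOH sample. The differences, −0.51 with ATRA (SE 0.19, limma adjusted p = 0.149) and −0.42 with 9-cis RA (SE 0.21, limma adjusted p = 0.182), missed the threshold.

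MT2A, the most widely studied human metallothionein, followed MT1X with more scatter in its controls. At 48 h it stood at 8.89, 8.78 and 8.50 in ATRA samples, 8.96 and 8.94 in 9-cis RA samples, and 10.03 and 8.94 in EtOH samples. The EtOH pair differed by 1.09, with replicate 1 far above every treated sample and replicate 2-3 level with the 9-cis RA samples. ATRA lowered MT2A by 0.77 (log2 difference −0.77, SE 0.24, 1.70-fold lower, limma adjusted p = 0.0430), while the difference with 9-cis RA was −0.54 (SE 0.26, limma adjusted p = 0.223).

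At 24 h, MT2A stood at 9.36, 9.29 and 9.11 in ATRA samples, 9.28 and 9.32 in 9-cis RA samples, and 9.58 and 9.72 in EtOH samples. Each retinoid sample was below both EtOH samples. The differences were −0.40 with ATRA (SE 0.24, limma adjusted p = 0.372) and −0.35 with 9-cis RA (SE 0.26, limma adjusted p = 0.373), and neither passed.

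MT1E, the dimmest of the 3, was detected on 12 of 20 arrays: 1 of 4 ATRA, 3 of 3 9-cis RA and 3 of 3 EtOH arrays at 24 h, and 2 of 4, 1 of 3 and 2 of 3 at 48 h. Its level was 5.80, 5.17 and 6.06 in ATRA samples, 5.84 and 6.14 in 9-cis RA samples, and 6.07 and 6.23 in EtOH samples at 24 h. At 48 h it was 5.76, 5.63 and 5.32 in ATRA samples, 6.09 and 5.73 in 9-cis RA samples, and 6.01 and 5.82 in EtOH samples. ATRA samples lay below EtOH samples at both times, and 9-cis RA samples overlapped them. The differences of −0.47 and −0.35 with ATRA (limma adjusted p = 0.272 and 0.335 at 24 and 48 h) and of −0.16 and −0.01 with 9-cis RA (0.697 and 0.992) did not pass. A log2 difference this near to background may understate a change where there is one, and none was called here.

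**Figure D1:**
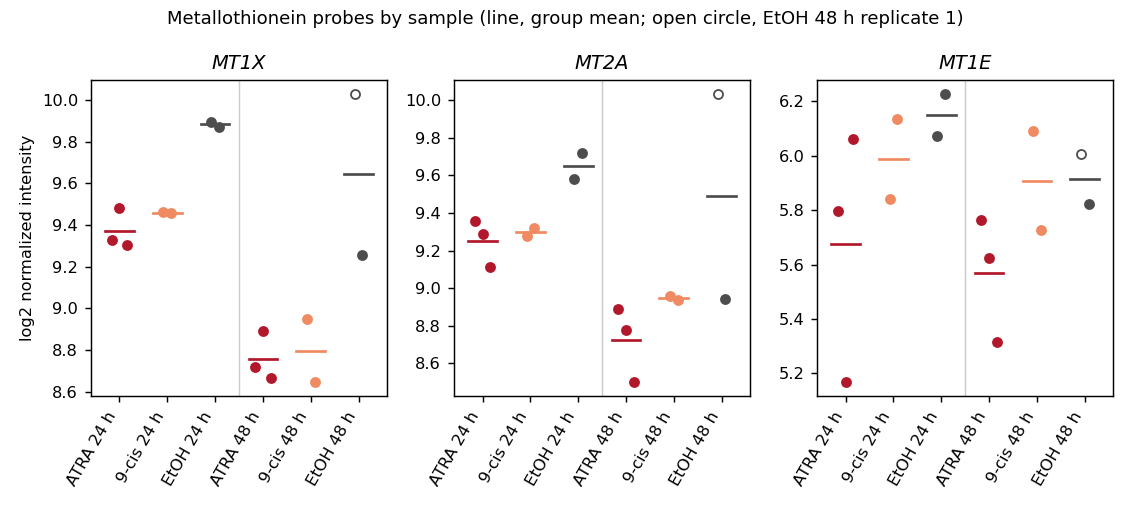
Log2 normalized intensity of MT1X, MT2A and MT1E in each of 14 samples (points) with group means (lines), for ATRA, 9-cis RA and EtOH at 24 h and then at 48 h; the open circle is EtOH 48 h replicate 1 and each panel has its own axis. In MT1X every retinoid sample lies below both EtOH samples of its time, and the 2 EtOH 48 h samples are 0.77 apart in MT1X and 1.09 apart in MT2A.

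Counted over the 3 members, ATRA at 48 h lowered 2 and 9-cis RA at 48 h lowered 1, with none higher; over all genes, 8.78% and 5.49% were called lower. At 24 h limma called 0 of 3 with either retinoid, with 1 member (MT1X) at an unadjusted p under 0.05 for ATRA and 0 for 9-cis RA, against 2.46% and 5.78% of all genes called lower. Members with all samples below all EtOH samples numbered 3 of 3 for ATRA at both times, and 2 and 1 of 3 for 9-cis RA at 24 and 48 h. The same complete separation downward was seen in 24.2% and 20% of all genes for ATRA, and in 34.5% and 25.3% for 9-cis RA. For MT1E with ATRA at 24 h the separation was narrow, with 6.06 in ATRA replicate 4 and 6.07 in EtOH replicate 1. MT1E was also near background, detected on 1 of 4 ATRA arrays at 24 h and 2 of 4 at 48 h. The members' median difference was −0.47 and −0.77 for ATRA at 24 and 48 h, and −0.35 and −0.54 for 9-cis RA, while the median over all genes lay between −0.02 and 0.01.

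The 48 h calls rest on 1 control sample. Without EtOH 48 h replicate 1, limma called 0 of 3 members at 48 h with either retinoid: MT1X stood at −0.50 with ATRA (adjusted p = 0.0875) and −0.46 with 9-cis RA (adjusted p = 0.152), and MT2A at −0.22 (adjusted p = 0.507) and 0.00 (adjusted p = 0.996). Without EtOH 48 h replicate 2-3 instead, MT1X stood at −1.27 and −1.23 and MT2A at −1.31 and −1.09 with ATRA and 9-cis RA, and all 4 passed. These fits also changed the spread shared by all groups: with either EtOH 48 h sample out, MT1X at 24 h kept its difference of −0.51 with ATRA and passed (adjusted p = 0.0264). The share of all genes called at 48 h without replicate 1 was 7.65% for ATRA and 6.56% for 9-cis RA, against 17.4% and 11% with all samples. MT1X with 9-cis RA at 48 h also missed the threshold without 9-cis RA 48 h replicate 1 (adjusted p = 0.0549) and without its replicate 2-3 (adjusted p = 0.159). MT2A with ATRA at 48 h kept its call in 2 of 14 fits that left out 1 sample each, and its adjusted p ran from 0.000308 to 0.507.

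**Figure D2:**
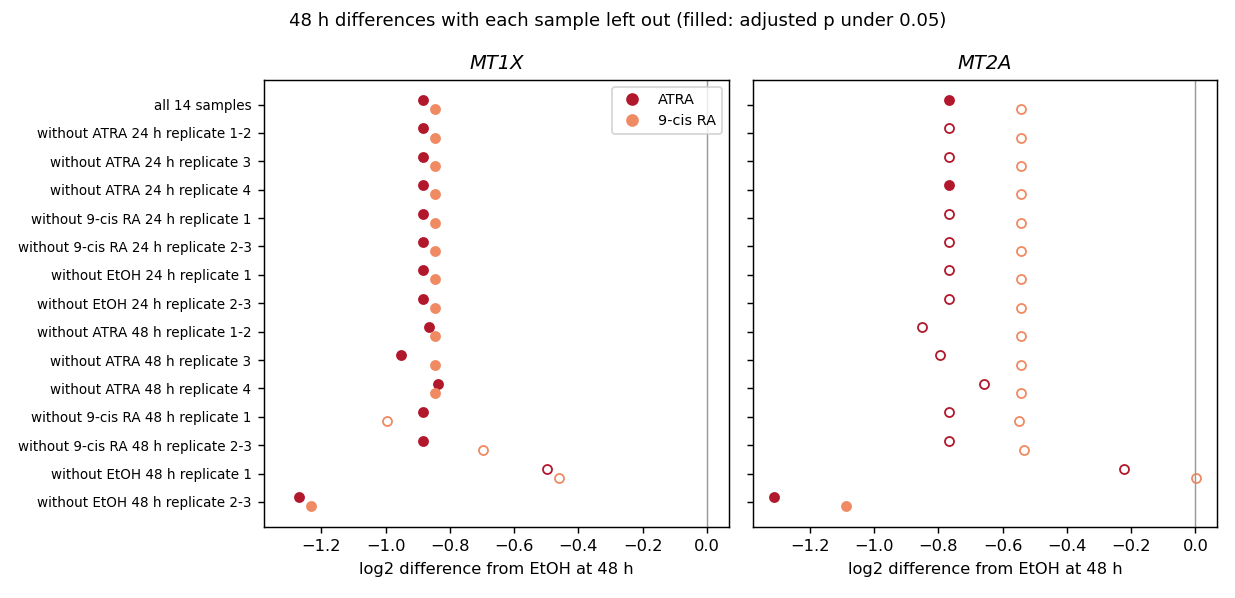
Log2 difference of MT1X and MT2A from EtOH at 48 h for ATRA (red) and 9-cis RA (orange), with all 14 samples and with each sample left out in turn; filled points have an adjusted p under 0.05. Leaving out EtOH 48 h replicate 1 moves MT1X to −0.50 and −0.46 and MT2A to −0.22 and 0.00, and leaving out replicate 2-3 moves them to −1.27, −1.23, −1.31 and −1.09.

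Averaging the effects at both times, a contrast added after the data were seen, uses 4 EtOH samples for each retinoid. MT1X fell by 0.70 with ATRA (SE 0.14, limma adjusted p = 0.00252) and fell by 0.63 with 9-cis RA (SE 0.15, limma adjusted p = 0.00868). MT2A fell by 0.58 with ATRA (SE 0.17, limma adjusted p = 0.0231), and its difference with 9-cis RA was −0.45 (SE 0.19, limma adjusted p = 0.0992). MT1E stood at −0.41 (limma adjusted p = 0.0829) and −0.08 (limma adjusted p = 0.778). So 2 and 1 of 3 members were called lower and 0 higher, where 13.7% and 10.9% of all genes were lower and 13.3% and 12.7% higher. Without EtOH 48 h replicate 1, MT1X was still called, at −0.51 with ATRA (adjusted p = 0.00553) and −0.44 with 9-cis RA (adjusted p = 0.0164), and MT2A was not called with ATRA (−0.31, adjusted p = 0.0681); MT2A also missed the threshold without EtOH 24 h replicate 1 (−0.62, adjusted p = 0.0541) or replicate 2-3 (−0.55, adjusted p = 0.0858). MT1E with ATRA passed without ATRA 24 h replicate 4 (−0.51, adjusted p = 0.0311), and MT2A with 9-cis RA passed without EtOH 48 h replicate 2-3 (−0.72, adjusted p = 0.000921).

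Within the larger array set, MT1X differed at 48 h by −0.81 with ATRA (adjusted p = 0.0275) and −0.90 with 9-cis RA (adjusted p = 0.0165), and MT2A by −0.67 (adjusted p = 0.113) and −0.56 (adjusted p = 0.184). Within the smaller set, which holds 1 EtOH array per time and not EtOH 48 h replicate 1, MT1X differed by −0.58 and −0.50 and MT2A by −0.22 and 0.03, with no call. At 24 h, MT1X differed by −0.44 and −0.43 in the larger set and −0.56 and −0.40 in the smaller one, and MT2A by −0.31 and −0.36, and −0.46 and −0.38. When the fit over 20 arrays held the set as a covariate and treated arrays of one sample number as correlated, MT1X at 48 h stood at −0.82 (adjusted p = 0.00194 with ATRA and 0.00452 with 9-cis RA), and MT2A at −0.67 with ATRA (adjusted p = 0.0225). With those 4 retinoid samples left out, MT1X at 48 h stood at −0.84 with ATRA (adjusted p = 0.0422) and MT2A at −0.66 (adjusted p = 0.149). At 24 h MT1X then stood at −0.48 with ATRA (adjusted p = 0.330) and MT2A at −0.33 (adjusted p = 0.600). That fit held no 9-cis RA sample at 24 h. None of the 4 samples is in the 9-cis RA comparison at 48 h, so the MT1X difference of −0.85 there could not change (adjusted p = 0.0408).

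**Figure D3:**
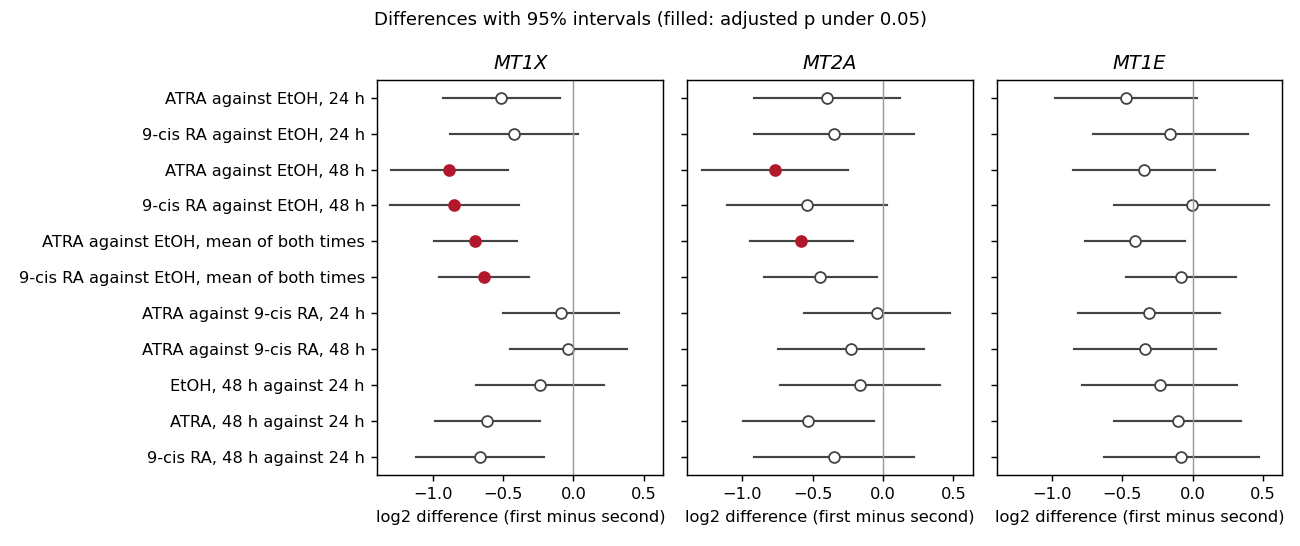
Log2 differences with 95% intervals from the limma fit for MT1X, MT2A and MT1E in 11 comparisons, each named as first against second on the vertical axis; filled points have an adjusted p under 0.05. MT1X is filled in the 48 h and both-times comparisons with EtOH for both retinoids, MT2A in those with ATRA, and no isomer or time comparison is filled.

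ATRA and 9-cis RA differ only in the geometry of a double bond in the side chain, and were compared at the same dose and time. For MT1X the isomers differed by −0.09 at 24 h (95% interval −0.50 to 0.33, limma adjusted p = 0.899) and −0.04 at 48 h (−0.45 to 0.38, limma adjusted p = 0.982), ATRA minus 9-cis RA. For MT2A the differences were −0.05 (−0.57 to 0.47, limma adjusted p = 0.963) and −0.23 (−0.75 to 0.29, limma adjusted p = 0.906). For MT1E they were −0.31 (−0.82 to 0.19, limma adjusted p = 0.646) and −0.34 (−0.84 to 0.16, limma adjusted p = 0.875). These 6 pairs gave 0 calls and 0 unadjusted p under 0.05, where 0.0656% and 0.0375% of all genes were called at 24 and 48 h. No member separated the isomers at 24 h, where ATRA lay wholly below 9-cis RA in 20.7% of all genes, and MT2A did at 48 h, where 11.8% did. The lowest limit of the 6 intervals was −0.84 (MT1E at 48 h), so these data do not show that the isomers act alike on these genes.

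No member was called between 48 and 24 h with either retinoid or in EtOH. MT1X at 48 h against 24 h differed by −0.61 with ATRA (SE 0.17, limma adjusted p = 0.113), −0.66 with 9-cis RA (SE 0.21, limma adjusted p = 0.0958) and −0.24 in EtOH (SE 0.21, limma adjusted p = 0.954). All treated samples at 48 h were below all at 24 h for that retinoid, a separation seen in 9.03% of all genes for ATRA and 34.1% for 9-cis RA, while the EtOH samples overlapped. MT2A differed by −0.53, −0.35 and −0.16, and MT1E by −0.11, −0.08 and −0.23. MT2A likewise lay wholly lower at 48 h with each retinoid and overlapped in EtOH. MT1E did the reverse: it overlapped with each retinoid and lay wholly lower at 48 h in EtOH, as 15.8% of all genes did. Limma called 0 of 3 members in each time comparison, with 2, 1 and 0 at an unadjusted p under 0.05, against 1.05%, 2.52% and 0.0281% of all genes called (lower: 0.365%, 1.56% and 0.0187%) for ATRA, 9-cis RA and EtOH. With either EtOH 48 h sample out, which lowers the shared spread, MT1X passed for ATRA (adjusted p = 0.0203) and 9-cis RA (0.0288) and MT2A for ATRA (0.0449). Without EtOH 48 h replicate 1 the EtOH difference itself was −0.63 in MT1X (adjusted p = 0.303) and −0.71 in MT2A (adjusted p = 0.259), as far below 0 as with the retinoids or farther, except for MT1X with 9-cis RA. The difference between the retinoid effects at the 2 times was −0.37 for ATRA and −0.42 for 9-cis RA in MT1X (limma adjusted p = 1.00 and 0.542), and −0.37 and −0.19 in MT2A (1.00 and 0.849). No member passed that test, 0 had an unadjusted p under 0.05, and 0.0375% and 0.00937% of all genes passed it.

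In level order from high to low, MT1X and MT2A both ran EtOH 24 h, EtOH 48 h, 9-cis RA 24 h, ATRA 24 h, 9-cis RA 48 h and ATRA 48 h. For MT1X the group means were 9.88 ± 0.02, 9.64 ± 0.54, 9.46 ± 0.0023, 9.37 ± 0.10, 8.80 ± 0.21 and 8.76 ± 0.12 (SD, n = 2, 2, 2, 3, 2 and 3). Neighbours in that order overlapped, except that ATRA 24 h lay above 9-cis RA 48 h. For MT2A they were 9.65 ± 0.10, 9.49 ± 0.77, 9.30 ± 0.03, 9.25 ± 0.13, 8.95 ± 0.01 and 8.72 ± 0.20 (the same n). Here ATRA 24 h lay above 9-cis RA 48 h and 9-cis RA 48 h above ATRA 48 h, and the other neighbours overlapped. MT1E ran EtOH 24 h, 9-cis RA 24 h, EtOH 48 h, 9-cis RA 48 h, ATRA 24 h and ATRA 48 h, with means of 6.15 to 5.57, and each neighbour overlapped the next.

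MT1X and MT2A varied together from sample to sample, as a description: Pearson's r was 0.93 and Spearman's rho 0.92 over 14 samples, which share treatments, time points and arrays. After each group's mean was subtracted, r was 0.85, and 0.30 over 12 samples without the EtOH 48 h pair. MT1E followed them less closely, with r of 0.47 with MT1X and 0.51 with MT2A, and 0.12 and 0.22 within groups. The probes of near-identical metallothionein transcripts can bind each other's RNA, and their part in this likeness was not tested. The first principal component over all genes ran with both as well, with r of −0.83 for MT1X and −0.82 for MT2A. In the EtOH 48 h pair, 11.7% of all genes had a wider gap than MT1X and 3.59% a wider one than MT2A, and the median gap of all genes was 0.31.

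**Figure D4:**
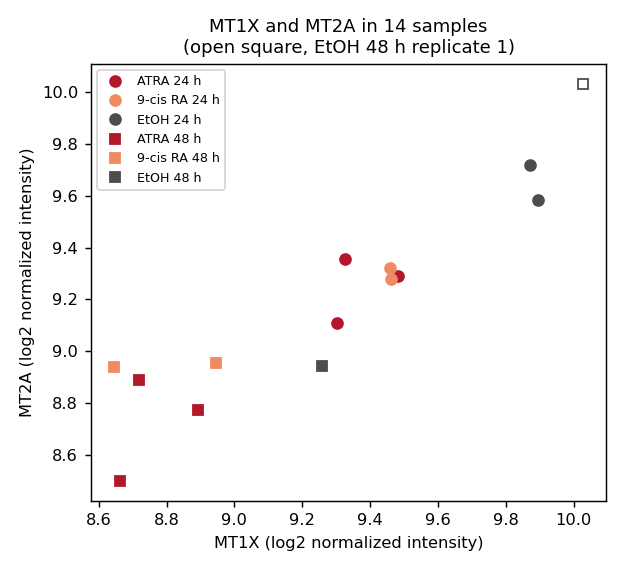
MT2A against MT1X, both as log2 normalized intensity, in 14 samples (circles 24 h, squares 48 h; red ATRA, orange 9-cis RA, grey EtOH; open square EtOH 48 h replicate 1). Treated 48 h samples lie lowest in MT1X, EtOH 48 h replicate 2-3 lies among them in MT2A, and EtOH 48 h replicate 1 lies highest, at 10.03 in each.

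The genes most like the mean of the 3 members over the 14 samples, each member centred on its own mean, were PSMB5 (r = 0.96, a proteasome subunit), BOLA2 (0.95, with a near-identical copy that its probe may not tell apart), RPL34 (0.95, a ribosomal protein), COPS6 (0.95, a COP9 signalosome subunit) and TP53I3 (0.94, a p53-inducible quinone oxidoreductase). The most opposed were ASAP2 (−0.95), KIF21A (−0.94) and BBS2 (−0.93). Of 10670 other genes, 50 had an r over 0.9 and 11 an r under −0.9. These are descriptions over samples that share 6 groups.

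Among genes of zinc sensing and transport, 18 of 27 listed were tested, and those called were mostly lower. ATRA lowered 1 at 24 h and 4 at 48 h, with 0 higher. With 9-cis RA 1 was lower and 1 higher at 24 h, and 3 lower and 0 higher at 48 h. Over all genes, 2.46% and 8.78% were called lower with ATRA, and 5.78% and 5.49% with 9-cis RA. The list's median difference was 0.04 and 0.03 for ATRA and 0.09 and −0.02 for 9-cis RA at 24 and 48 h, close to the all-gene medians of −0.02, 0.00, 0.01 and −0.01. Leaving out EtOH 48 h replicate 1 leaves 1 EtOH sample at 48 h, so only effect sizes are given for this list. The ATRA differences at 48 h were then −0.79 for SLC30A1, −0.84 for SLC39A14, −0.63 for SLC39A4 and −0.76 for MTF1. With 9-cis RA they were −0.81 for SLC30A1, −0.86 for SLC39A14 and −0.67 for SLC39A4.

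SLC30A1, the zinc exporter of the plasma membrane and like the metallothioneins a known MTF1 target, was called lower in all 4 comparisons. It stood at 6.76, 6.91 and 7.17 in ATRA samples, 7.01 and 6.95 in 9-cis RA samples, and 7.53 and 7.69 in EtOH samples at 24 h. At 48 h it stood at 6.17, 6.45 and 6.10 in ATRA samples, 6.30 and 6.14 in 9-cis RA samples, and 7.45 and 7.03 in EtOH samples. No retinoid sample overlapped the EtOH samples of its time. SLC30A1 fell by 0.66 and 1.00 with ATRA (SE 0.17, limma adjusted p = 0.0396 and 0.00174) and fell by 0.63 and 1.02 with 9-cis RA (SE 0.19, limma adjusted p = 0.0430 and 0.00365). With the authors' values these differences were smaller, −0.30 and −0.37 with ATRA and −0.29 and −0.38 with 9-cis RA, and all 4 were called. The probe was detected on 2 of 3 9-cis RA arrays at 48 h and on every array of the other groups. Leaving out EtOH 48 h replicate 1 kept both 48 h calls of SLC30A1, at −0.79 (adjusted p = 0.0282) and −0.81 (adjusted p = 0.0371). The 24 h calls of SLC30A1 were less firm: they were lost in 9 of 14 fits that left out 1 sample with ATRA (adjusted p 0.0175 to 0.315) and in 8 of 14 with 9-cis RA (adjusted p 0.0227 to 0.230). Within the larger array set the ATRA difference of SLC30A1 at 48 h was −0.94 (adjusted p = 0.0015), and within the smaller one −0.79 (adjusted p = 0.235). A second SLC30A1 probe gave −0.59 and −0.89 with ATRA and −0.36 and −0.92 with 9-cis RA, and passed at 48 h (adjusted p over probes 0.0183 and 0.0316) but not at 24 h (0.171 and 0.343).

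MTF1, the zinc-sensing activator of metallothionein genes, had 7.00, 6.73 and 5.91 in ATRA samples, 7.15 and 7.08 in 9-cis RA samples, and 8.23 and 7.31 in EtOH samples at 48 h. EtOH replicate 1 was again the highest sample. MTF1 fell by 1.22 with ATRA at 48 h (SE 0.31, limma adjusted p = 0.0165), and was not called without that sample (−0.76, adjusted p = 0.225). Its other differences, −0.49 with ATRA at 24 h and −0.97 and −0.65 with 9-cis RA at 24 and 48 h, did not pass.

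SLC39A4, a zinc importer, stood at 8.67, 8.23 and 8.66 in ATRA samples, 8.26 and 8.70 in 9-cis RA samples, and 10.19 and 9.15 in EtOH samples at 48 h. It fell by 1.15 with ATRA (SE 0.27, limma adjusted p = 0.0107) and fell by 1.19 with 9-cis RA (SE 0.29, limma adjusted p = 0.0191), and without EtOH 48 h replicate 1 neither SLC39A4 difference was called (−0.63, adjusted p = 0.154, and −0.67, adjusted p = 0.174). Its 9-cis RA call was also lost without 9-cis RA 48 h replicate 1 (−0.97, adjusted p = 0.184). SLC39A14, an importer of zinc, iron and manganese, did not share that control pattern, since EtOH replicate 2-3 was its highest sample. SLC39A14 stood at 9.17, 9.19 and 9.09 in ATRA samples, 9.08 and 9.17 in 9-cis RA samples, and 9.61 and 9.99 in EtOH samples at 48 h. SLC39A14 fell by 0.65 with ATRA (SE 0.15, limma adjusted p = 0.00936) and fell by 0.68 with 9-cis RA (SE 0.16, limma adjusted p = 0.0160), and both calls held without EtOH 48 h replicate 1 (adjusted p = 0.00744 and 0.00947). Its 9-cis RA call was lost without either 9-cis RA 48 h sample (adjusted p = 0.126 and 0.0657). SLC39A9, another zinc transporter, was the gene called higher, by 1.09 with 9-cis RA at 24 h (SE 0.33, limma adjusted p = 0.0454). That call was lost in 7 of 14 fits without 1 sample. The SLC39A9 probe was near background in the controls, detected at 24 h on 1 of 3 EtOH arrays and 3 of 3 9-cis RA arrays. With the authors' values its difference was 0.29 and not called (limma adjusted p = 0.102).

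**Figure D5:**
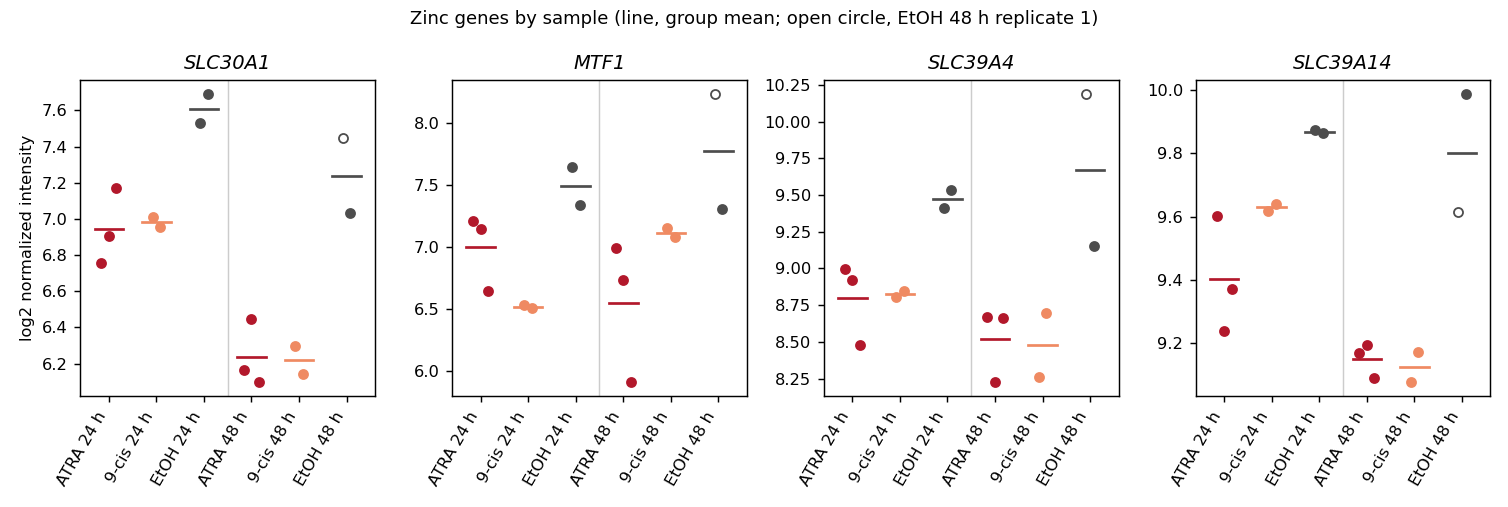
Log2 normalized intensity of SLC30A1, MTF1, SLC39A4 and SLC39A14 in each of 14 samples (points) with group means (lines), for ATRA, 9-cis RA and EtOH at 24 h and then at 48 h; each panel has its own axis. EtOH 48 h replicate 1 (open circle) is the highest sample for MTF1 and SLC39A4 and the lower of its pair for SLC39A14, and all treated samples lie below both EtOH samples of their time in each panel.

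Of 15 copper genes, 14 were tested, and SCO2, a copper chaperone of cytochrome c oxidase assembly, was the 1 called in each comparison. Over all genes, 5.76% and 17.4% were called with ATRA at 24 and 48 h, and 14.5% and 11% with 9-cis RA. SCO2 fell by 0.75 and 0.71 with ATRA (SE 0.14, limma adjusted p = 0.00612 and 0.00419) and fell by 0.59 and 0.73 with 9-cis RA (SE 0.15, limma adjusted p = 0.0231 and 0.00806) at 24 and 48 h. Without EtOH 48 h replicate 1, SCO2 at 48 h stood at −0.59 with ATRA (adjusted p = 0.0431) and −0.61 with 9-cis RA (adjusted p = 0.0541). The SCO2 call with 9-cis RA at 48 h was also lost without either 9-cis RA 48 h sample (adjusted p = 0.0666 and 0.0537), that at 24 h without any 1 of the 4 samples compared (adjusted p 0.0733 to 0.178), and the ATRA call at 24 h without EtOH 24 h replicate 2-3 (adjusted p = 0.116).

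Of the genes listed for iron handling and heavy metal stress, only some of which cadmium or oxidants are known to induce, 14 of 16 were tested and went both ways. With ATRA 2 were higher and 1 lower at 24 h, and 2 higher and 2 lower at 48 h; with 9-cis RA 4 were higher and 0 lower at 24 h, and 1 higher and 2 lower at 48 h. Over all genes, the shares called higher and lower were 3.3% and 2.46%, then 8.61% and 8.78%, with ATRA, and 8.73% and 5.78%, then 5.54% and 5.49%, with 9-cis RA. HMOX1, heme oxygenase, fell by 0.64 and 0.74 with ATRA (SE 0.13, limma adjusted p = 0.0115 and 0.00217) at 24 and 48 h, and fell by 0.53 with 9-cis RA at 48 h (SE 0.14, limma adjusted p = 0.0314). The HMOX1 differences at 48 h were −0.63 (adjusted p = 0.0237) and −0.42 (adjusted p = 0.154) when EtOH 48 h replicate 1 was left out. SRXN1, sulfiredoxin, was lower at 48 h by −0.70 and −0.59 in log2 difference, and SLC11A2, an iron and metal importer, was higher in all 4 comparisons, by 0.72 to 0.94. BAG3, a co-chaperone, was higher with ATRA at both times and with 9-cis RA at 24 h, by 0.85, 0.50 and 1.33. HSPA1A and HSPA1B, near-identical Hsp70 genes whose probes may share signal, were higher with 9-cis RA at 24 h by 1.12 and 0.97. SLC11A2 at 48 h (0.57 with ATRA and 0.54 with 9-cis RA) and BAG3 with ATRA at 48 h (0.44) were not called without EtOH 48 h replicate 1.

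Glucocorticoid-responsive genes, a list included because glucocorticoids are known to raise metallothioneins, were called in the higher direction: of 8 tested out of 10, ATRA raised 3 at each time, and 9-cis RA raised 4 at 24 h and 3 at 48 h, with 0 lower. Over all genes, 3.30% and 8.61% were called higher with ATRA and 8.73% and 5.54% with 9-cis RA. KLF9, a transcription factor, was higher by 1.79 and 1.98 with ATRA and by 2.56 and 2.77 with 9-cis RA. CEBPD, another transcription factor, was higher by 0.94 and 0.82, and by 0.61 and 0.94. SGK1, a kinase, was higher by 0.76 and 1.00, and by 0.93 and 1.01, and DUSP1, a phosphatase, by 0.66 with 9-cis RA at 24 h. The other 2 SGK1 probes gave 0.63 and 0.70 with ATRA and 0.58 and 0.78 with 9-cis RA at 24 h, with no call, and 0.89 to 1.09 at 48 h, with all 4 of these differences called. When EtOH 48 h replicate 1 was left out, SGK1 was not called at 48 h (0.59 with ATRA and 0.59 with 9-cis RA). In that fit KLF9 stood at 1.89 and 2.68, and CEBPD at 0.77 and 0.88, with ATRA and 9-cis RA at 48 h.

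Genes around the metallothionein cluster on chromosome 16 showed no shared direction. Of 25 listed, 14 were tested: with ATRA 0 were called at 24 h, and 2 were higher and 2 lower at 48 h; with 9-cis RA 1 was higher and 1 lower at 24 h, and 1 higher and 2 lower at 48 h. Over all genes, 5.76% and 17.4% were called with ATRA and 14.5% and 11% with 9-cis RA. OGFOD1, a ribosomal protein hydroxylase, was lower at 48 h, by −0.59 with ATRA and −0.62 with 9-cis RA, but its other probes gave 0.24 and −0.22, and 0.64 and −0.13. BBS2, a BBSome subunit, was higher with ATRA at 48 h by 0.50 (SE 0.16, limma adjusted p = 0.0468), and was not called without EtOH 48 h replicate 1 (0.26, adjusted p = 0.395), while a second BBS2 probe gave 0.79 (adjusted p over probes 0.00681). RSPRY1 was higher by 1.07 with 9-cis RA at 24 h, and by 0.89 with ATRA and 0.99 with 9-cis RA at 48 h. Neither OGFOD1 (adjusted p = 0.213 and 0.218) nor RSPRY1 (0.167 and 0.157) was called at 48 h without that sample. IRX5, a homeobox gene, was lower by −0.80 with 9-cis RA at 24 h and by −1.05 with ATRA at 48 h. With 9-cis RA at 48 h it was not well above background on any array. For this probe and normalization, that gives at least 1.90-fold lower against EtOH (limma adjusted p = 0.000710). With the authors' values, IRX5 at 48 h differed by only −0.29 with ATRA and −0.36 with 9-cis RA, both called. Its 24 h difference with 9-cis RA was −0.21 with the authors' values (limma adjusted p = 0.0595). Within the larger array set it was −0.56 (limma adjusted p = 0.0811), and neither passed. A second IRX5 probe gave −0.22 with 9-cis RA at 24 h (adjusted p over probes 0.623), −0.62 with ATRA at 48 h (0.103) and −0.70 with 9-cis RA at 48 h (0.123), and did not pass. Without EtOH 48 h replicate 1, IRX5 stood at −1.28 with ATRA and −1.62 with 9-cis RA at 48 h. Of 14 other genes listed as metallothionein family members, only TESMIN had a probe that the annotation names to it alone. The rest of that list was not analysed here. TESMIN was detected on 1 array or none in each group, and was not called with either retinoid.

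Markers of other cell types were few and are given as measured. Of 5 fibroblast markers, 2 were tested (DCN and LUM), with a summed linear intensity of 1623 to 1904 in ATRA samples, 1873 to 2101 in 9-cis RA samples and 543 to 885 in EtOH samples at 48 h, and 892 to 1083, 853 to 934 and 580 to 652 at 24 h. DCN was detected on 4 of 4 ATRA, 3 of 3 9-cis RA and 0 of 3 EtOH arrays at 48 h, and on 0 arrays at 24 h. Of 5 leukocyte markers, 1 was tested (CD79A), at 75.7 to 124, 123 to 139 and 42.1 to 45.8 at 48 h, and 48.0 to 71.0, 51.7 to 59.4 and 45.6 to 49.2 at 24 h. Of 5 epithelial markers, 1 was tested (CDH1), at 331 to 468, 333 to 345 and 312 to 374 at 48 h, and 133 to 146, 161 to 168 and 127 to 156 at 24 h. Of 5 endothelial markers, 0 were tested. Their part in the metallothionein differences was not tested. The 8 melanocytic markers summed to 69654 to 75588, 67753 to 71444 and 56136 to 66512 at 48 h in the same order of groups, and to 65619 to 67094, 62449 to 63806 and 59909 to 60311 at 24 h, where the groups did not overlap.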

How the data were processed

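RNA from Mel202 cells was hybridised to Illumina BeadChips. The deposited probe intensities are, per the file headers, non-normalized signals, each beside the authors' detection p-value. The series matrix holds the authors' processed log2 values, for which the submitters' processing notes name lumi with no version given; its scale was taken from its values, and it served as an alternative.

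The 20 arrays were corrected and quantile normalized with neqc (limma 3.58.1, R 4.3.3, offset 16), and log2 values of arrays sharing a sample number were averaged to 14 samples. Of 47323 probes, 18269 had a detection p under 0.01 on 3 or more arrays, and 14194 of these were named to 1 gene. Where several probes named one gene, that of highest mean level was used, which left 10673 genes. The annotation used here covered the 22579 probes of the series matrix, not all 47323 of the intensity file. It named 16545 of them with 1 symbol and 3 with several, and gave no symbol for 6031. Probes outside the series matrix could not be named to a gene. One limma fit over 6 groups gave 11 contrasts, and 2 more were added after the data were seen. Adjusted p-values are Benjamini-Hochberg over all genes. The procedure was tested on simulated data. Figures used Python 3.11.15 and matplotlib 3.10.9.

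The members and lists were chosen with earlier results of these data known. Named genes were all members and, of each list, up to 4 genes with the lowest p among those that passed in each contrast with EtOH; likeness named the 5 highest and 3 lowest r. Alternatives were 12 settings and leaving out each of 14 samples.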

Additional observations from a re-analysis of the deposited data

How the results depend on the processing

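No paired analysis was possible because the replicate numbers of different groups do not mark a shared culture, plate or day in the labels, and arrays of one sample number were averaged. Counts of members called ran, as 1 sample was left out in turn, from 0 to 2 for ATRA at 48 h (2 with all samples), 0 to 2 for 9-cis RA at 48 h (1), 0 to 1 for ATRA at 24 h (0), 1 to 3 and 1 to 2 for the mean of both times with ATRA and 9-cis RA (2 and 1), and 0 to 2 and 0 to 1 for 48 h against 24 h with ATRA and 9-cis RA (0 and 0). For ATRA at 48 h the count was 1 with the authors' values, the larger array set, every probe tested or the samples apart left out, and 0 in the smaller set or with the groups compared alone. For 9-cis RA it was 0 at 48 h in the smaller set and with the groups compared alone, and 2 at 24 h with the groups compared alone. For both times together it was 1 with ATRA in the larger set and without the samples apart, 0 with either retinoid in the smaller set, and 2 with 9-cis RA under the set term. It was 1 for ATRA at 24 h and both time comparisons with 20 arrays as independent, 1 for both time comparisons under the set term, and 1 for that of 9-cis RA with its groups alone. The cause was not tested.

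Signs turned for small differences. MT1E with 9-cis RA at 48 h was 0.0027 without background correction, 0.0025 with the authors' values, 0.019 with equal medians, 0.18 in the smaller set and 0.0020 with an offset of 50, and ran from −0.19 to 0.18 as samples were left out; over both times it ran from −0.17 to 0.0077. MT2A with 9-cis RA at 48 h was 0.033 in the smaller set and ran from −1.09 to 0.0027. In the isomer comparisons, MT2A at 24 h was 0.050 in the larger set (−0.098 to 0.025 as samples were left out), MT1E at 48 h was 0.010 there, and MT1X at 48 h was 0.0028 with 20 arrays, 0.0058 under the set term, 0.096 in the larger set and 0.0098 without the samples apart (−0.19 to 0.11). Over time, MT1E was 0.34 in the larger set and 0.21 without the samples apart with ATRA (−0.36 to 0.085), and −0.26 to 0.10 with 9-cis RA, while in EtOH MT1X ran from −0.63 to 0.14 and MT2A from −0.71 to 0.38. In the change of effect with time, MT1E with 9-cis RA was −0.11 in the larger set (−0.028 to 0.34), MT2A with 9-cis RA 0.0051 with 20 arrays and 0.42 in the smaller set (−0.73 to 0.35), MT2A with ATRA 0.24 in the smaller set (−0.91 to 0.17), MT1X with ATRA −0.76 to 0.014 and MT1E with ATRA −0.13 to 0.32. MT1X against EtOH kept its sign in all settings run at both times.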
